A study of Mus musculus with 12 samples.

Results

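Immediate early genes and heat shock genes were examined in single cells of the mouse paw epidermis. The 36 genes were chosen by symbol from the 32285 genes in the count tables, and all 36 were found. They comprise 8 genes of the AP-1 family and its partner Atf3, 9 other early transcription factors, 9 genes of feedback and growth arrest, and 10 heat shock genes. All mice were wild-type C57BL/6J without drug treatment. From an age of 6 to 8 weeks they received a regular diet (RD, 11% fat) or a high-fat diet (HFD, 42% fat) for 10 weeks, so that they were 16 to 18 weeks old at its end. Each sex had 3 mice on the RD and 3 on the HFD, with 1 library of hind paw glabrous epidermis from each. The HFD serves in the study as a mouse model of painful diabetic neuropathy.

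Immediate early genes are transcribed within minutes of a stimulus, without the need for new protein, by factors that already wait in the cell. Their products are mostly transcription factors such as Fos and Jun, which pair into AP-1, and brakes such as the phosphatase Dusp1 and the mRNA-destabilizing protein Zfp36, which end the response. Heat shock genes encode chaperones that hold or refold damaged proteins and are switched on by heat shock factor when unfolded protein accumulates. In skin, both programs accompany wounding and heat, Klf4 is also needed for the epidermal barrier, and both are known to be switched on while tissue is dissociated into cells. All libraries went through the same enzymatic dissociation, in Dispase overnight in the cold and then in TrypLE at 37 °C. Undissociated tissue was not analysed here, so the levels below are those after dissociation.

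Each library held between 7370 and 16254 barcodes and between 134449247 and 194673581 unique molecular identifiers (UMIs), each of which counts 1 captured transcript. Any pair of libraries shared at most 0.564% of the barcodes of the smaller one. After filtering, 62147 male and 64228 female cells were clustered apart, with the 36 genes kept out of the clustering, and clusters were named from markers. Langerhans cells (LCs), the antigen-presenting cells of the epidermis, appear as LC-like cells, led by Cd74, H2-Ab1 and Cd207, with 130 to 435 cells per male and 278 to 462 per female. T cell-like cells, led by Cd3g and Trdc, were few, with 21 to 67 per mouse. The keratinocytes fell into 5 classes, called basal, proliferating, migratory, suprabasal or spinous, and terminally differentiated. A male cluster led by Slc6a19, Wfdc17 and Ivl was kept out of the named classes by a limit set after the data were seen, and it held 3.05% to 4.07% of the cells in RD and 4.60% to 5.70% in HFD males. Another male cluster of 1404 cells also had no name, with 2.14% to 2.86% in RD and 1.03% to 1.96% in HFD males, the other way and again without overlap. A female cluster of 8321 cells without enough markers also had no name, with 12.4% to 12.7% of the cells in RD and 11.9% to 16.0% in HFD females. The suprabasal or spinous class was made of unlike clusters in the sexes. Its female part included a cluster of 1259 cells led by Wfdc21, Il1f6 and Il1f5 with Wfdc12 among its leading genes, as in the male cluster led by Slc6a19 that was kept out, and its male part included a cluster of 15909 cells with Mettl7a1 and Notch3 among its leading genes, as in the unnamed female cluster. Male counts came from Cell Ranger 6.1.0 and female counts from 7.2.0 according to the file headers, so sex and counting software cannot be told apart. The levels below are CPM, UMIs of a gene per 1000000 UMIs of the class in 1 mouse, and they are not divided by transcript length because only 3' ends were counted.

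Some of the sequences that drive such genes are shown, for Fos, Nr4a2 and the Hspa1 pair, each with at least 1 of the patterns below. The 150 bases before the RefSeq transcription start are printed 5' to 3' on the strand of the gene, on GRCm38.p6. In Fos (chr12:85473740-85473889, plus strand) and Nr4a2 (chr2:57124004-57124153, minus strand), capitals mark the core of the cAMP response element, TGACG or its reverse complement CGTCA, and in Fos also the TATA box TATAAA. In Hspa1a (chr17:34972157-34972306, minus strand) and Hspa1b (chr17:34959239-34959388, minus strand), capitals mark GAANNTTC, a form of the heat shock element.
Fos: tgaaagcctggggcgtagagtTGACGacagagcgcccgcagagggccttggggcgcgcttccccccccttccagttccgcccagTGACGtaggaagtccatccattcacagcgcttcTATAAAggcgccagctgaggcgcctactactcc
Nr4a2: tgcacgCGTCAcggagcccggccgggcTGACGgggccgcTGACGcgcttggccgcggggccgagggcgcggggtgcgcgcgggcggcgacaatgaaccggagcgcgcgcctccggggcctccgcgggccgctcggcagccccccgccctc
Hspa1a: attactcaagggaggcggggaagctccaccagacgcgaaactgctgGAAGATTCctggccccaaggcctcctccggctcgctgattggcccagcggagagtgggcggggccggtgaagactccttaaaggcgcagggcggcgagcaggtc
Hspa1b: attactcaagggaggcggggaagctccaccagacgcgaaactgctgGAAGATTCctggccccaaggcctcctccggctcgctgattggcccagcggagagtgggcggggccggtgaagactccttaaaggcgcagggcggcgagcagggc
The Hspa1a and Hspa1b stretches were identical at 149 of 150 bases. These 2 genes encode the same inducible chaperone from near-identical copies, so the split of their UMIs is uncertain. Over 250 bases before the start and on both strands, this core was found in 13 of the 29 genes that had an entry and in 17.9% of 27025 promoters. GAANNTTC was found in 7 of the 29 genes, 5 of them among the 8 heat shock genes with an entry, and in 6.78% of all promoters. Other forms of the element were searched too. TTCNNGAA was found in 2 of the 29 genes, Hspe1 and Hsph1, and in 7.10% of all promoters. A form of 3 units was found in 1, Hspe1, and in 0.4% of all promoters. Hspa1a and Hspa1b had neither. The AP-1 site TGANTCA was found in none of the 29 genes and in 6.87% of all promoters. These matches are letters in a fixed window and were not measured as binding.

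Across all cells of a mouse, the 36 genes together took 18198 to 20989 CPM in males and 16384 to 18557 CPM in females. Their summed level was highest in migratory cells in both sexes, with 29646 CPM in males and 22632 CPM in females, and lowest in terminally differentiated cells, with 14009 and 10819 CPM. By single genes, terminally differentiated cells had the lowest level of the 7 classes for 22 of the 36 genes in males and for 22 of 36 in females. Migratory cells, a keratinocyte class marked by Krt79, had the highest level for 14 genes in males and 7 in females, and LC-like cells for 7 and 11. The highest class was the same in both sexes for 25 genes. These comparisons of classes are descriptions, since the classes were made from the same cells, and no test was run on them. The share of all genes that is lowest or highest in each class is not given. The counts and sums are thus not read as particular to the 36 genes.

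**Figure D1:**
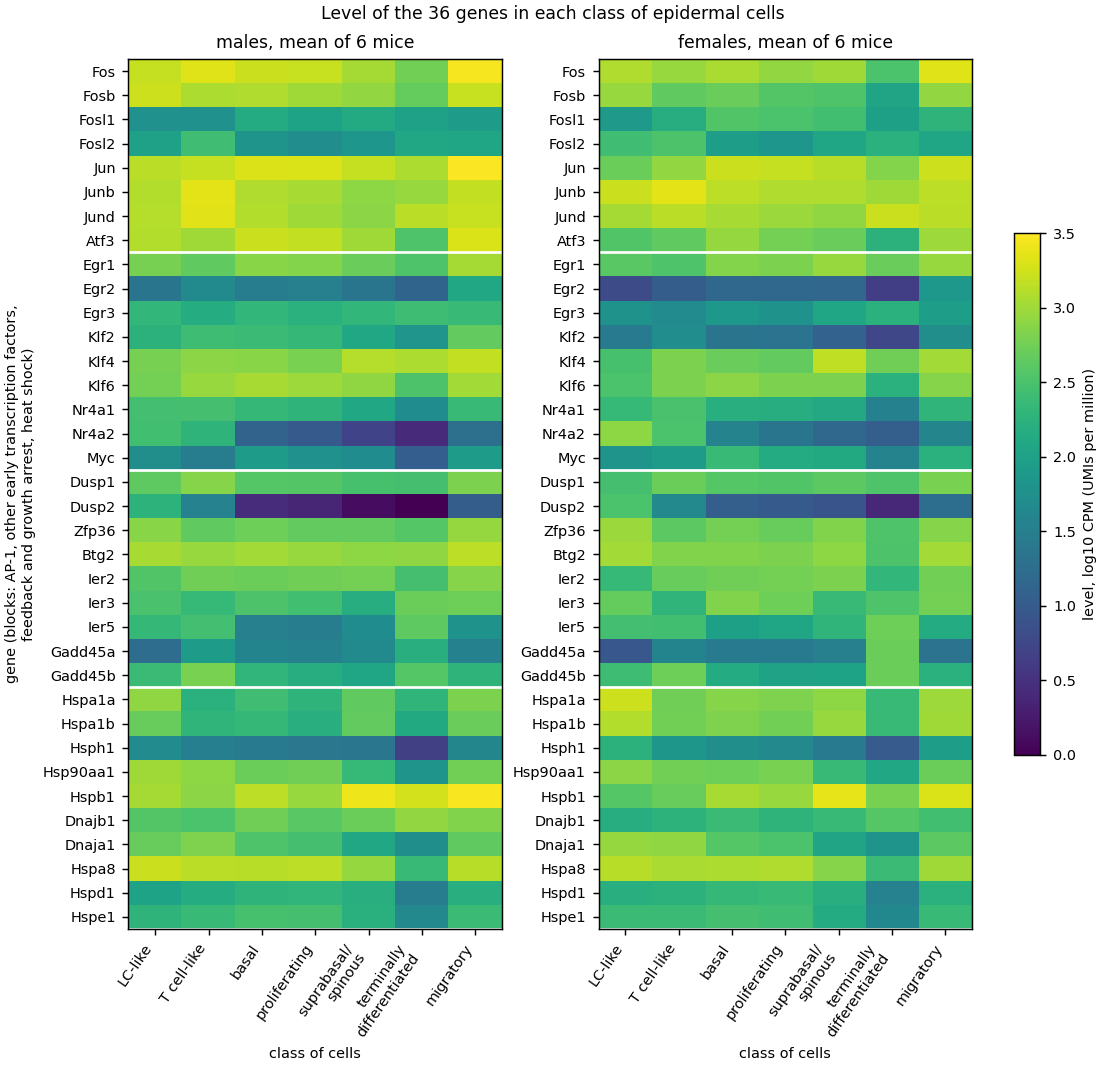
The level of each of the 36 genes (rows, in blocks by role) in each class of cells (columns) as log10 CPM averaged over 6 mice, for males (left) and females (right). The terminally differentiated column is darkest for many genes, and Nr4a2 and Dusp2 are bright in LC-like cells and dark in keratinocytes.

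Among the AP-1 genes, Jun, Fos and Atf3 were the most abundant in all male cells, with 1752 ± 102, 1302 ± 133 and 1185 ± 97.1 CPM (SD, n = 6), and Fosl2, Fosl1 and Fosb the least, with 73.2 ± 5.7, 135 ± 13.6 and 963 ± 69.2 CPM. In females, Jun, Junb and Fos were at the top, with 1472 ± 88.9, 1282 ± 93.6 and 1051 ± 141 CPM, and Fosl2, Fosl1 and Fosb at the bottom, with 103 ± 7.8, 295 ± 33.4 and 431 ± 61.8 CPM. Fos, the short-lived partner in AP-1, was highest in migratory cells, with 2816 ± 209 CPM in males and 2122 ± 236 CPM in females, and lowest in terminally differentiated cells, with 575 ± 145 and 322 ± 42.1 CPM. In females every mouse's migratory level of Fos was above every level in the next class, while in males it overlapped with T cell-like cells. Jun, the partner of Fos in AP-1, was low in female LC-like cells, with 519.9 ± 54.7 CPM, below all keratinocyte classes, and less so in male LC-like cells, with 1367 ± 136 CPM. Junb, a Jun relative that restrains growth, was highest in T cell-like cells, with 2279 ± 394 CPM in males and 2292 ± 468 CPM in females. Fosl2, a longer-lived Fos relative, was also highest there, with 271 ± 58.7 and 334 ± 87.8 CPM, and in females its LC-like level of 269 ± 19.9 CPM lay above every keratinocyte class. Jund, another Jun relative, was not low in terminally differentiated cells, at 1364 ± 101 CPM in males and 1641 ± 241 CPM in females.

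Of the other early transcription factors, Klf4, Klf6 and Egr1 were the most abundant in all male cells, with 1206 ± 123, 888 ± 66.4 and 611 ± 39.3 CPM, and Klf4, Egr1 and Klf6 in all female cells, with 905 ± 149, 762 ± 65.3 and 664 ± 64.3 CPM. The least abundant were Nr4a2, Egr2 and Myc in males, with 10.9 ± 1.4, 31.6 ± 4.8 and 54.1 ± 8.6 CPM, and Egr2, Klf2 and Nr4a2 in females, with 17.5 ± 2.2, 19.5 ± 3.6 and 41.0 ± 5.9 CPM. Nr4a2, an orphan nuclear receptor, stood out by class. In male LC-like cells it ranged from 219 to 339.7 CPM with a median of 263 CPM, against 11.9 to 15.4 CPM in basal cells. In female LC-like cells it ranged from 663 to 877 CPM with a median of 825 CPM, against 29.0 to 44.5 CPM in basal cells. The mean in LC-like cells was thus 20.8 times the basal mean in males and 21.5 times in females, without overlap with any keratinocyte class. T cell-like cells held 189 ± 61.9 CPM in males and 322 ± 149 CPM in females, and the male values overlapped with those of LC-like cells. When each cell was reduced to 2000 UMIs, 41.0% of male and 71.3% of female LC-like cells had a UMI of Nr4a2, against 2.27% and 6.52% of basal cells. Without the reduction these shares were 62.8%, 93.4%, 9.01% and 23.1%, with median depths per mouse of 2825 to 7781 UMIs in LC-like and 4466 to 10662 UMIs in basal cells.

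Egr2, a zinc finger factor of the Egr family, was highest in migratory cells, with 126 ± 24.7 CPM in males and 74.3 ± 5.7 CPM in females, and in females all 6 mice lay above the next class, proliferating cells with 15.5 ± 2.3 CPM. Klf2, a factor that also keeps lymphocytes quiet, was highest in migratory cells too, with 454 ± 41.5 and 54.3 ± 5.4 CPM. Klf4, the barrier factor, was high in migratory cells, with 1490 ± 207 CPM in males and 1037 ± 137 CPM in females, and in suprabasal or spinous cells, with 1308 ± 116 and 1452 ± 217 CPM. Egr3, another Egr factor, was highest in terminally differentiated cells in both sexes, with 256 ± 29.0 and 171 ± 26.7 CPM, though these overlapped with the next class. Nr4a1, the closest relative of Nr4a2, was not confined in the same way, with 286 ± 50.3 CPM in male LC-like, 297 ± 92.1 CPM in male T cell-like and 215 ± 24.6 CPM in male basal cells.

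Of the feedback and growth arrest genes, Btg2, Ier2 and Zfp36 were the most abundant in all male cells, with 956 ± 48.4, 553 ± 53.4 and 498 ± 96.9 CPM, and Btg2, Zfp36 and Ier2 in all female cells, with 757 ± 108, 616 ± 46.2 and 581 ± 20.3 CPM. Dusp2, Gadd45a and Ier5 were the least abundant in males, with 3.9 ± 0.9, 52.9 ± 11.7 and 78.6 ± 11.0 CPM, and Dusp2, Gadd45a and Gadd45b in females, with 16.9 ± 3.0, 40.8 ± 3.4 and 137 ± 17.9 CPM. Dusp2, a phosphatase of immune cells that switches off MAP kinases, was a gene of LC-like cells here. Its level there was 181 ± 67.2 CPM in males and 322 ± 78.2 CPM in females, against 2.8 ± 1.0 and 11.5 ± 2.0 CPM in basal cells and 35.6 ± 18.6 and 44.7 ± 12.1 CPM in T cell-like cells. In each sex every mouse's LC-like level was above every level in the other classes. At 2000 UMIs per cell, 29.1% of male and 41.0% of female LC-like cells had a UMI of Dusp2, against 0.52% and 2.16% of basal cells. Unthinned, these were 49.4%, 68.6%, 1.71% and 8.21%. Dusp1, its relative in most cell types, was instead at 426 ± 76.2 and 294 ± 20.9 CPM in LC-like cells and at 653 ± 95.5 and 631 ± 53.7 CPM in migratory cells.

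**Figure D2:**
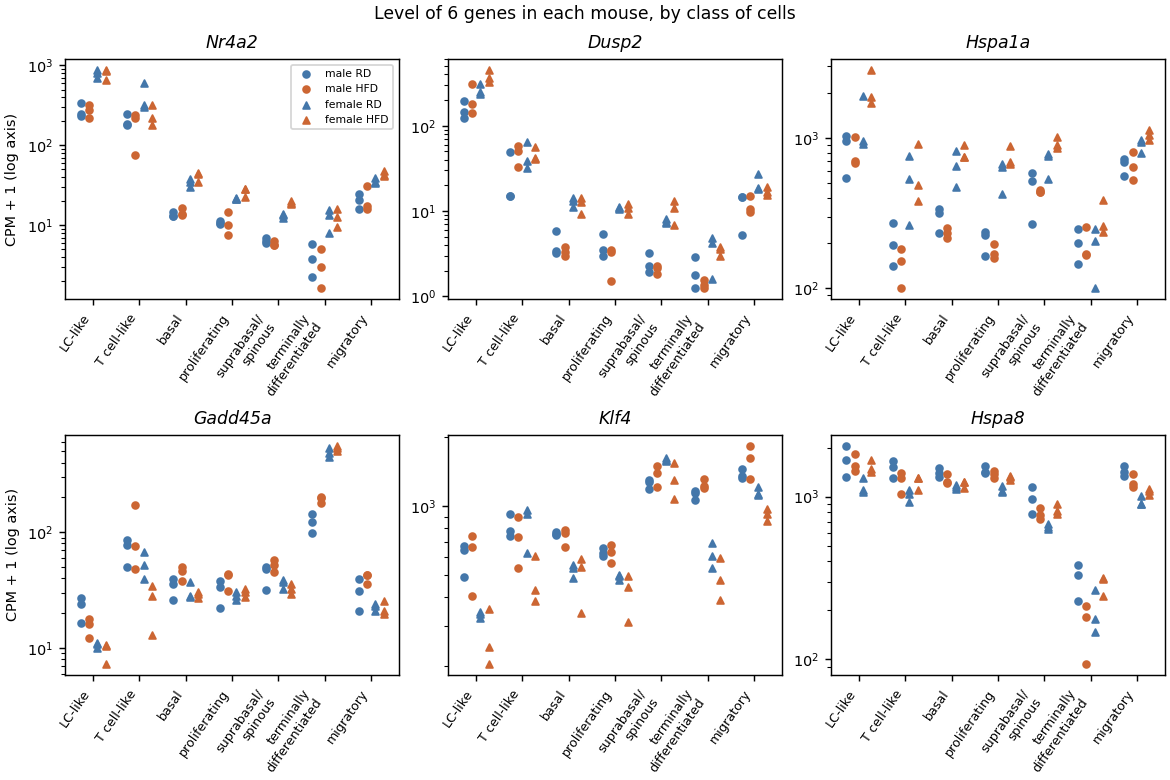
The level of 6 genes in each mouse, as CPM + 1 on a log axis, by class of cells, with circles for males, triangles for females, blue for RD and orange for HFD. Nr4a2 and Dusp2 in LC-like cells lie above every keratinocyte class in both sexes, and Gadd45a is highest in terminally differentiated cells.

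Gadd45a, a growth arrest gene induced by DNA damage, went against the low level of most genes in terminally differentiated cells. It stood at 156 ± 41.1 CPM in males and 509.9 ± 41.6 CPM in females there, against 38.0 ± 8.4 and 28.9 ± 3.6 CPM in basal cells, and in females all mice were above the next class. Ier5, which binds heat shock factor, was likewise highest there, with 426 ± 71.9 and 529.6 ± 60.0 CPM against 33.9 ± 3.7 and 96.8 ± 6.2 CPM in basal cells. Gadd45b, a stress-induced relative of Gadd45a, was highest in T cell-like cells, with 630.2 ± 221 and 526 ± 156 CPM, and next in terminally differentiated cells, with 377 ± 26.4 and 515 ± 40.9 CPM, which did not differ beyond the spread of the mice.

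Of the heat shock genes, Hspb1, Hspa8 and Dnajb1 were the most abundant in all male cells, with 2455 ± 201, 995 ± 130.4 and 564 ± 50.2 CPM. In all female cells these were Hspb1, Hspa8 and Hspa1a, with 1497 ± 134, 962 ± 105 and 776 ± 157 CPM, and Hspa1b was level with Hspa1a at 776 CPM. Hsph1, Hspd1 and Hspe1 were the least abundant in both sexes, with 22.6 ± 3.6, 149 ± 9.3 and 197 ± 17.0 CPM in males and 45.9 ± 11.2, 193 ± 18.0 and 218 ± 27.5 CPM in females. Hspb1, a small chaperone of differentiating keratinocytes, was at 2917 ± 231 CPM in male migratory and 2324 ± 206 CPM in female suprabasal or spinous cells. Several cytosolic chaperones, but not all, had higher means in LC-like than in basal cells. Hsp90aa1, the inducible Hsp90, was at 1017 ± 112 CPM in male LC-like cells, above every keratinocyte class, and at 770.3 ± 210.0 CPM in female ones. Hspa1a was at 819 ± 205 and 1697 ± 711 CPM there, Hsph1, a partner that resets Hsp70, at 49.1 ± 10.3 and 178 ± 86.3 CPM, and Dnaja1, a co-chaperone of Hsp70, at 487 ± 53.2 and 893 ± 201 CPM. Dnajb1 went the other way, at 363 ± 32.5 CPM in male and 154 ± 25.6 CPM in female LC-like cells, 0.665 and 0.630 times the basal mean, and Hspb1 was at 0.755 and 0.337 times it. Both had their lowest mean of the female classes in LC-like cells. In terminally differentiated cells Hsp90aa1 was at 65.7 ± 24.4 and 121 ± 41.8 CPM, Dnaja1 at 55.5 ± 15.2 and 65.0 ± 16.4 CPM and Hspa8, the constitutive Hsp70, at 236 ± 102 and 242 ± 68.8 CPM, each the lowest of the 7 classes. Not every heat shock gene was lowest there. Dnajb1, another co-chaperone of Hsp70, had its highest level in terminally differentiated cells, 856 ± 55.9 CPM in males and 381 ± 41.4 CPM in females, and Hspb1 was at 1796 ± 219 and 615 ± 196 CPM, against 1424 ± 120 and 1104 ± 169 CPM in basal cells.

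Keratin UMIs were also present in LC-like and T cell-like cells. Their source, free RNA in the droplets or doublets, was not measured, and the largest LC-like subcluster had a median of 4001 UMIs per cell in males and 6272 in females against 13553 and 17034 in the next. Krt5, Krt14, Krt1 and Krt10 in LC-like cells were at 33.8% to 60.4% of their level in all cells of the same mouse in males and at 16.3% to 30.6% in females. A gene at or below that percentage was no higher there, relative to all cells, than the keratins. In male LC-like cells Gadd45a was at 35.8% of its all-cell level and at or below the keratins in 5 of 6 mice, and in female ones at 22.2% and in 4 of 6 mice. Hspb1 was at 44.3% in male and 24.6% in female LC-like cells, Fosl1 at 43.6% and 26.0%, and Klf4 at 50.5% and 33.1%, near the percentages of the keratins. In T cell-like cells Hspb1 was at or below the keratins in 5 of 6 mice in each sex. In all mice, 30 of the 36 genes in male and 32 in female LC-like cells lay above the keratin percentage.

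The spread between mice of the same sex and diet is given beside that of all tested genes. For these SDs, unlike the levels above, log2 CPM were scaled by TMM with a prior count of 2. The tested genes were not matched to the 36 by level, so the medians compare genes of unlike abundance. The SD of log2 CPM within diet groups had a median of 0.22 over the 36 genes in male LC-like cells, where the median of all tested genes was 0.27, and of 0.23 against 0.20 in female LC-like cells. In basal cells these were 0.12 against 0.15 in males and 0.19 against 0.14 in females, with 12 and 24 of the 36 genes above the all-gene median. In LC-like cells the steadiest AP-1 genes were Fosl2, Fosb and Atf3 in males, with SDs of 0.05, 0.11 and 0.14, and Jun, Fosl2 and Junb in females, with 0.12, 0.13 and 0.14. The most variable AP-1 genes were Fosl1, Fos and Junb in males, with 0.60, 0.22 and 0.21, and Fosb, Fosl1 and Fos in females, with 0.29, 0.29 and 0.23.

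Among the other early factors in LC-like cells, Klf6, Klf2 and Egr1 were steadiest in males, with SDs of 0.12, 0.16 and 0.19, and Egr3, Klf2 and Egr1 in females, with 0.09, 0.10 and 0.13. Klf4, Egr2 and Myc varied most in males, with 0.38, 0.38 and 0.32, and Egr2, Klf4 and Nr4a1 in females, with 0.42, 0.27 and 0.24. Of the feedback genes, Dusp2, Ier5 and Zfp36 varied most in male LC-like cells, with 0.46, 0.38 and 0.38, and Btg2, Gadd45b and Ier2 least, with 0.16, 0.18 and 0.21. In females, Dusp2, Gadd45b and Btg2 varied most, with 0.24, 0.23 and 0.23, and Dusp1, Ier5 and Ier3 least, with 0.09, 0.13 and 0.18.

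Of the heat shock genes, in female LC-like cells Hsph1, Hspa1a and Hspa1b had SDs of 0.56, 0.51 and 0.49, each above the SD of at least 91.9% of tested genes, and Hspe1, Hspa8 and Dnajb1 had 0.14, 0.15 and 0.20. In male LC-like cells Hspa1b, Hspa1a and Hspb1 had 0.54, 0.43 and 0.39, and Hspd1, Hspe1 and Dnajb1 had 0.05, 0.15 and 0.16. The summed heat shock level of female LC-like cells was 4822, 4835 and 7363 CPM in RD and 7494, 10009 and 7892 CPM in HFD mice, a coefficient of variation of 28.0% over the 6 mice. RD replicate 3 thus lay next to the HFD mice and apart from the other RD mice. HFD replicate 2, the highest, also had the highest median share of mitochondrial UMIs per cell, 2.66%, against 1.98% to 2.13% in the other females. In males this share was 3.09% to 3.40% in RD and 3.48% to 3.68% in HFD libraries, without overlap, and its part in the values of either sex was not tested. The summed AP-1 level of the same cells was 5936, 5132 and 6238 CPM in RD and 6262, 6565 and 6242 CPM in HFD mice, with a coefficient of variation of 8.2%. Of the 8 sums of heat shock genes, for the 7 classes and all cells, female RD replicate 1 had the lowest in 8, and male RD replicate 3 had the highest of the males in 7. Each of these libraries sat at 1 end of its sex in most classes.

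**Figure D3:**
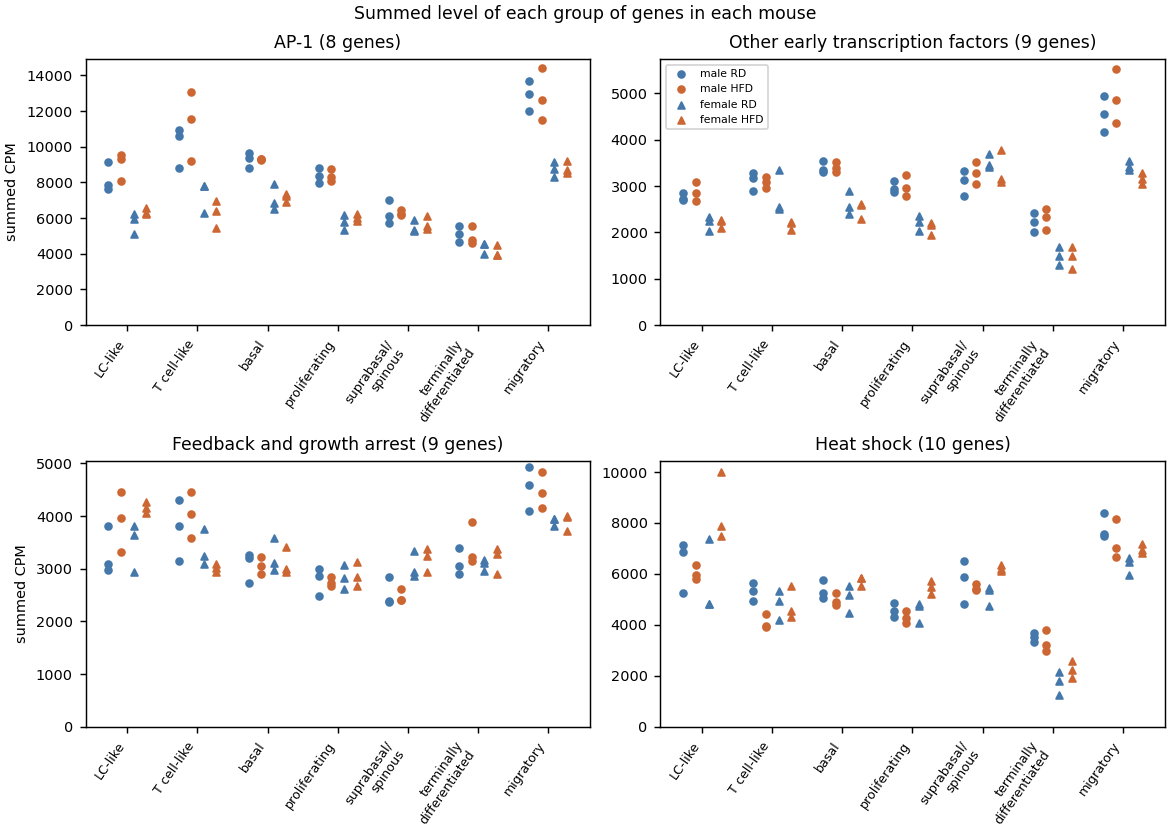
The summed level of each role group in each mouse, in CPM, by class of cells, with circles for males, triangles for females, blue for RD and orange for HFD. The heat shock sum of female LC-like cells runs from 4822 to 10009 CPM, and their AP-1 sum from 5132 to 6565 CPM.

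Levels in males and females are given side by side without a test. The basal class too was made of unlike clusters. Its male part held a cluster of 1654 cells led by Dynap, Csrp2 and Prelp, while the female cluster of 57 cells with Dynap and Csrp2 among its leading genes had no name, and its female part held a cluster of 6222 cells led by Has2, Mmp3 and Phldb2. The part of these clusters in the values of the sexes was not tested. In basal cells 12 of the 36 genes were higher in every male than in every female and 10 the reverse, in CPM without TMM scaling. The share of all tested genes that parts the sexes in this way was not computed. Whether these counts are particular to the 36 genes is thus not known, and they are not read so. Over both sexes, TMM factors of basal cells ran from 0.814 to 0.874 in males and from 1.15 to 1.21 in females. Their part in these counts and in the ratios below was not tested. Klf2 differed most, with 245 CPM in males and 22.0 CPM in females, a ratio of 11.1. Egr3, Fosb, Dnajb1 and Atf3 were 2.81, 2.43, 2.23 and 1.88 times as high in male basal cells. Dusp2, Hspa1b, Ier5, Myc, Nr4a2, Hspa1a and Fosl1 were lower in male basal cells, at 0.241, 0.316, 0.350, 0.354, 0.355, 0.364 and 0.396 times the female level.

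To ask whether the HFD altered these genes, UMIs were summed over the cells of a class in each mouse and HFD was compared with RD within each sex by edgeR's quasi-likelihood test, with Benjamini-Hochberg adjustment over all tested genes and a threshold of 0.05. Fold changes are log2 HFD over RD after TMM scaling, whereas CPM are not so scaled, apart from the log2 CPM behind the SDs above. Over the 16 comparisons, 8 in each sex, 3 genes passed the threshold, and each did so in female suprabasal or spinous cells only, with a higher level in HFD. They were Nr4a2 (chromosome 2, 57106830 to 57124003, minus strand, GRCm38), Hspa8 (chromosome 9, 40800984 to 40810087, plus strand) and Hsp90aa1 (chromosome 12, 110690605 to 110702728, minus strand). These 3 of 36 genes are 8.33%, against 3.61% of the 14270 genes tested there.

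Nr4a2 in female suprabasal or spinous cells was at 11.4, 12.9 and 12.5 CPM in RD and 18.1, 17.6 and 18.8 CPM in HFD mice. All HFD mice lay above all RD mice. Its log2 fold change was 0.54 ± 0.08 (SE; adjusted p = 0.0170, edgeR quasi-likelihood). This level is low beside that of LC-like cells, where Nr4a2 did not pass, with 877, 694 and 807 CPM in RD and 663, 869 and 843 CPM in HFD females. Hspa8 was at 647, 674 and 632 CPM in RD and 894, 815 and 785 CPM in HFD mice, again without overlap, with a log2 fold change of 0.32 ± 0.07 (adjusted p = 0.0478, edgeR quasi-likelihood). Hsp90aa1 was at 198, 211 and 216 CPM in RD and 261, 259 and 261 CPM in HFD mice, and the HFD mice were nearly alike. Its log2 fold change was 0.29 ± 0.06 (adjusted p = 0.0421, edgeR quasi-likelihood). In male suprabasal or spinous cells the log2 fold changes of these genes were -0.08 ± 0.12, -0.26 ± 0.13 and -0.15 ± 0.12, and none passed. The clusters behind this class differed between the sexes, as given above, and their part in these values and in the interaction was not tested. With 1 mouse left out, the log2 fold changes stayed between 0.48 and 0.59 for Nr4a2, 0.25 and 0.36 for Hspa8 and 0.24 and 0.32 for Hsp90aa1. Without RD replicate 1, 2 or 3 or HFD replicate 3, none of the 3 passed, with adjusted p of up to 0.0880, 0.176 and 0.172 by edgeR's quasi-likelihood test. Without HFD replicate 1, Hspa8 and Hsp90aa1 did not pass either, at 0.0773 and 0.0731 in edgeR, so that both passed in 1 of the 6 fits with a mouse left out, the one without HFD replicate 2. With DESeq2, 6 of the 36 genes passed in these cells, against 6.19% of all tested genes, and at an unadjusted p under 0.05 in edgeR there were 14, against 22%.

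The other heat shock genes of female suprabasal or spinous cells lay on the same side. All 10 had a positive fold change, between 0.14 and 0.45 on the log2 scale with a median of 0.22, while the median of all tested genes was 0.00 and 50.4% were positive. Genes of a class were measured in the same mice, so counts of positive genes here and below are not counts of independent results. In 9 of the 10, every HFD mouse was above every RD mouse. Over the 36 genes this was so for 12, or 33.3%, against 17.1% of all tested genes, and the other 3 of the 12 were Junb, Ier5 and Nr4a2. The 8 AP-1 genes had a median of 0.01 with 4 positive, the 9 other early factors -0.03 with 3 positive, and the 9 feedback genes 0.06 with 7 positive. Klf4 was the one gene with every HFD mouse below every RD mouse, against 9.64% of all tested genes. The level of Krt5, Krt14, Krt1 and Krt10, 3.33% to 3.65% of UMIs in RD and 3.19% to 3.62% in HFD, overlapped between the diets.

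**Figure D4:**
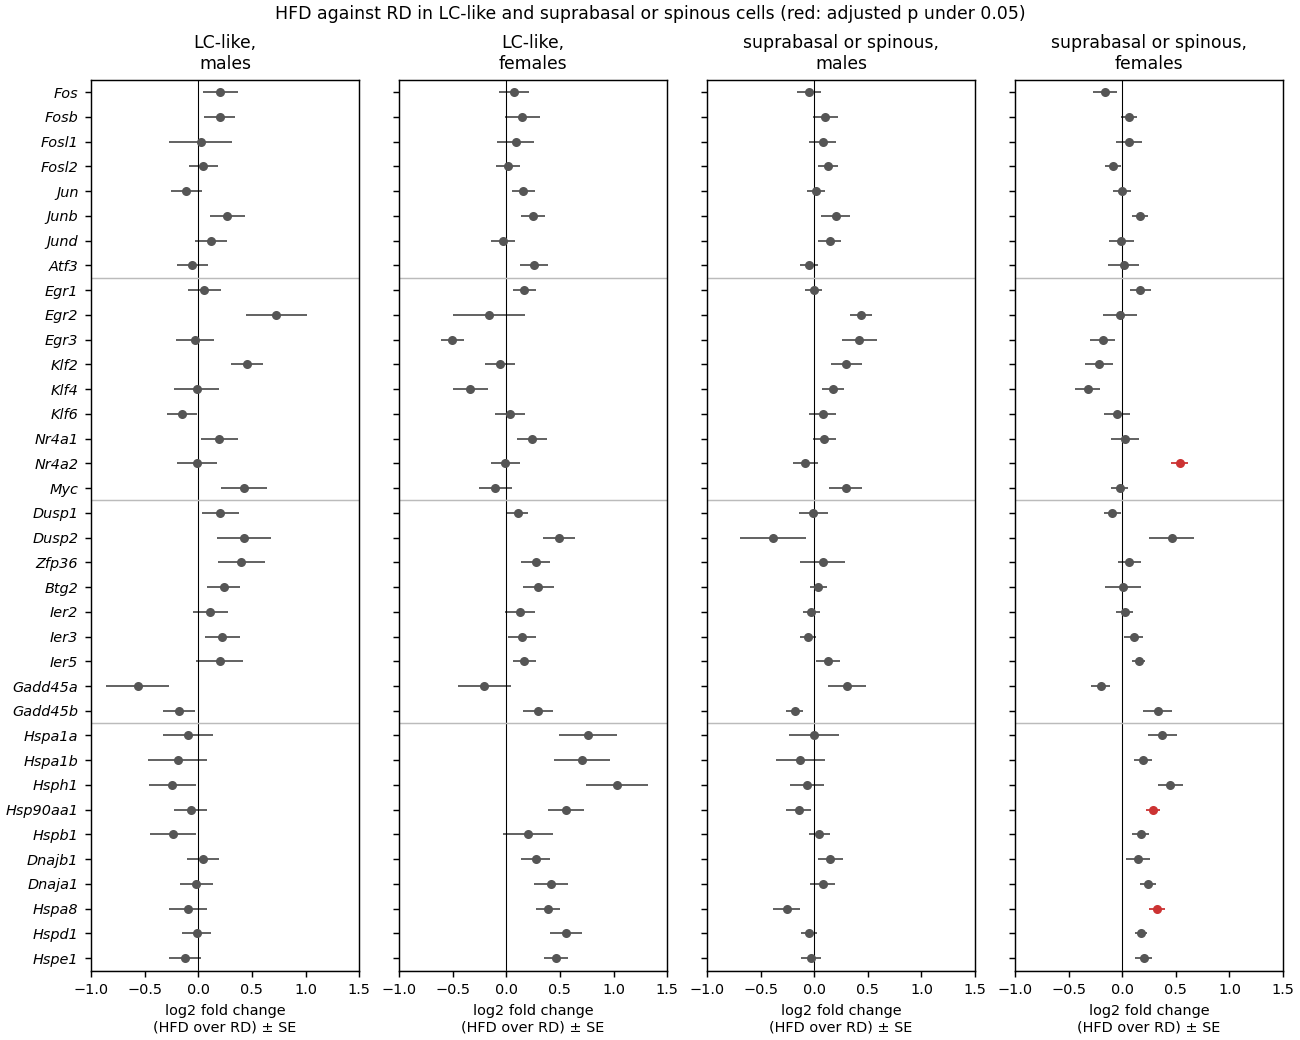
Log2 fold change of HFD over RD with its standard error (bars) for each of the 36 genes, in blocks by role, in LC-like and in suprabasal or spinous cells of males and females; red marks an adjusted p under 0.05. The heat shock block, at the bottom, lies to the right of 0 in both female panels and not in the male ones.

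In female LC-like cells no gene of the 36 passed with edgeR or DESeq2, 10 had an unadjusted p under 0.05 in edgeR, against 9.75% of all tested genes, and 0.0665% of the 10534 tested genes passed with edgeR. The 5 largest fold changes were all in heat shock genes. Hsph1 was at 80.5, 79.3 and 186 CPM in RD and 190.3, 298 and 236 CPM in HFD mice, a log2 fold change of 1.04 ± 0.29 (adjusted p = 0.277, edgeR quasi-likelihood). Hspa1a was at 959, 907 and 1892 CPM in RD and 1711, 2830.0 and 1885 CPM in HFD mice, a log2 fold change of 0.76 ± 0.27. In both genes RD replicate 3 lay at the level of the HFD mice, and for Hspa1a it overlapped with them. Hspa1b had 0.71 ± 0.26, Hspd1, a mitochondrial chaperone, 0.56 ± 0.15, and Hsp90aa1 0.56 ± 0.17, with adjusted p of 0.406, 0.251 and 0.291 in edgeR's quasi-likelihood test.

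Hspd1 was at 104.5, 119 and 159 CPM in RD and 186, 207 and 178 CPM in HFD mice, and Hsp90aa1 at 599, 497 and 765 CPM in RD and 777, 1088 and 896 CPM in HFD mice. In both, the groups did not overlap. All 10 heat shock genes of female LC-like cells had a positive fold change, with a median of 0.51 and 8 of them at an unadjusted p under 0.05, against a median of 0.00 and 49.9% positive over all tested genes. These genes, with the Hspa1a and Hspa1b pair among them, come from the same mice and are not 10 independent results. Every HFD mouse was above every RD mouse for 9 of the 36 genes, or 25.0%, against 8.94% of all tested genes. These were Hsph1, Hsp90aa1, Hspa8, Hspd1, Hspe1, Junb, Dusp2, Zfp36 and Btg2. Dusp2 was at 250.1, 236 and 311 CPM in RD and 321, 449 and 362 CPM in HFD mice, so that its lowest HFD mouse was barely above its highest RD mouse. Egr3 alone had every HFD mouse below every RD mouse, against 7.13% of all tested genes, with 77.2, 72.8 and 73.5 CPM in RD and 49.8, 57.3 and 52.1 CPM in HFD mice, a log2 fold change of -0.50 ± 0.11 (adjusted p = 0.132, edgeR quasi-likelihood). Without the filter on low counts 9 of the 36 genes passed in these cells, 8 higher and Egr3 lower, against 1.42% of all tested genes. That share is over 19914 genes, with those of low counts added to the 10534 of the filtered test, so it covers an unlike set. In that fit Hsph1 had an adjusted p of 1.55e-13 and Hspa1a of 9.58e-08 (edgeR quasi-likelihood). Yet RD replicate 3 lay at the level of the HFD mice in both genes. The calls without the filter are thus not read as stronger results than those of the filtered test. Without RD replicate 3, Hsph1 alone of the 36 passed, with a log2 fold change of 1.59, against 0.0279% of all tested genes. This was the RD mouse nearest the HFD mice in Hsph1, so leaving it out enlarges the difference and adds no support. No gene of the 36 passed when any other mouse was left out instead.

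**Figure D5:**
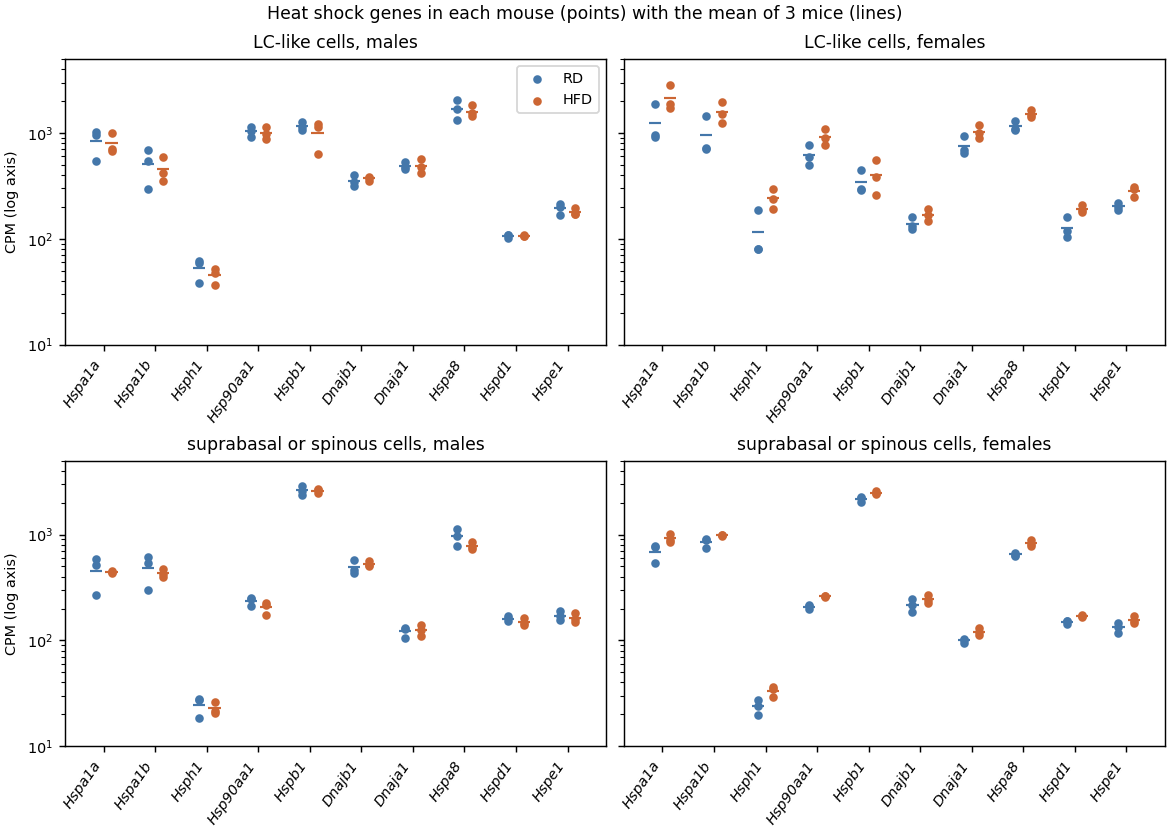
The level of the 10 heat shock genes in each mouse, in CPM on a log axis, in LC-like (top) and suprabasal or spinous cells (bottom) of males (left) and females (right), with points for mice, lines for means of 3, blue for RD and orange for HFD. In female LC-like cells the highest blue point of Hsph1, 186 CPM, lies beside the lowest orange one, 190.3 CPM.

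In the other female classes no gene of the 36 passed, where 2.36% of all tested genes did in all cells, 0.996% in basal, 1.65% in proliferating, 0.243% in migratory, 0% in T cell-like and 0% in terminally differentiated cells. At an unadjusted p under 0.05 there were 7 of the 36 genes in all cells against 20.6% of all tested genes, 4 in basal against 15.4%, 8 in proliferating against 19.6%, 7 in migratory cells against 15%, 5 of 33 tested in T cell-like against 6.8% and 3 of 35 in terminally differentiated cells against 8.21%. With DESeq2, 2 passed in all cells, Klf4 and Hsp90aa1, against 8.05% of all tested genes, 1 in proliferating cells, Hsp90aa1, against 3.56%, and 1 in migratory cells, Klf4, against 1.25%. The heat shock genes were positive in 10 of 10 in proliferating cells, with a median log2 fold change of 0.23, in 9 of 10 in basal, 9 of 10 in migratory and 9 of 10 in terminally differentiated cells, with medians of 0.17, 0.18 and 0.21, and in 5 of 10 in T cell-like cells. Of all tested genes, 50.1% were positive in proliferating, 50.0% in basal, 50.7% in migratory, 53.1% in terminally differentiated and 50.9% in T cell-like cells, and the medians lay between 0.00 and 0.03. The counts of the 36 genes with every HFD mouse above every RD mouse were 8 in all cells against 18.5% of all tested genes, 9 in proliferating cells against 14.6%, 4 in basal cells against 10.5%, 6 in migratory cells against 11.9% and 5 of 35 in terminally differentiated cells against 7.88%. As shares these counts are 22.2%, 25.0%, 11.1%, 16.7% and 14.3%. Every HFD mouse was below every RD mouse for 3 genes in migratory cells, Klf2, Klf4 and Klf6, or 8.33%, against 8.81% of all tested genes. In the same direction there was 1 gene in all cells, Klf4, against 8.13%, 1 in proliferating cells, Myc, against 9.51%, none in basal cells against 10.3% and none in terminally differentiated cells against 3.09%. Of the 9 in proliferating cells, 8 were heat shock genes.

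In female basal cells the 5 largest fold changes were Hspa1a with 0.29 ± 0.16, Hspb1 with 0.29 ± 0.12, Nr4a2 with 0.28 ± 0.12, Hsph1 with 0.23 ± 0.17 and Egr3 with -0.21 ± 0.16, at adjusted p of 0.43, 0.296, 0.285, 0.554 and 0.572 in edgeR's quasi-likelihood test. Hspb1 was the one of them without overlap, at 832, 1067 and 1080.3 CPM in RD and 1347, 1110.3 and 1190.0 CPM in HFD mice. In T cell-like cells, where the classes were small, 7 of 33 tested genes, or 21.2%, had every HFD mouse below every RD mouse, against 6.02% of all tested genes, and Fos, Fosl1, Fosl2, Jund, Egr3, Klf4 and Dnaja1 were these. Fos was at 1102, 923 and 1211 CPM in RD and 769, 711 and 694 CPM in HFD females there, with a log2 fold change of -0.55 ± 0.18 (adjusted p = 0.595, edgeR quasi-likelihood).

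In males no gene of the 36 passed in any of the 8 comparisons. Of all tested genes, 1.46% passed in T cell-like cells, and 0% passed in all cells and in each of the other 6 classes, LC-like cells included. At an unadjusted p under 0.05 there were 6 of the 36 genes in all cells against 9.05% of all tested genes, 2 in LC-like against 5.06%, 10 in basal against 7.44%, 6 in proliferating against 7.16%, 3 in suprabasal or spinous against 6.49% and 5 in migratory cells against 6.08%. There were 4 of 30 tested in T cell-like against 12.7% and 14 of 35 in terminally differentiated cells against 25.9%. The last count was 9 without HFD replicate 1 against 12.6%, 7 without HFD replicate 3 against 18.1%, 4 without RD replicate 1 against 13.9%, 9 without RD replicate 2 against 14%, 19 without RD replicate 3 against 33.3%, and 5 of 33 with doublets removed against 7.7%. With DESeq2, 1 gene passed in all male cells, Egr2, against 1.26% of all tested genes, 5 in terminally differentiated cells against 2.02%, and none in the other male classes.

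The 5 largest fold changes in male LC-like cells were Egr2, Gadd45a, Klf2, Myc and Dusp2. Egr2 was at 11.5, 23.8 and 15.1 CPM in RD and 33.2, 23.0 and 31.0 CPM in HFD males, with a log2 fold change of 0.73 ± 0.28. Klf2 was at 123, 159 and 169.9 CPM in RD and 221, 196 and 209.7 CPM in HFD males, without overlap, with 0.46 ± 0.15. Gadd45a had -0.56 ± 0.29, Myc, a driver of growth, 0.43 ± 0.21 and Dusp2 0.42 ± 0.25, and all 5 had an adjusted p of 0.91 in edgeR's quasi-likelihood test. Every HFD mouse lay above every RD mouse for 2 of the 36 genes, Fosl2 and Klf2, or 5.56%, against 6.67% of all tested genes, and below for 1, Klf6, or 2.78%, against 4.51%. The heat shock genes of male LC-like cells were positive in 1 of 10, with a median of -0.10 and fold changes from -0.24 to 0.05, where 49.8% of all tested genes were positive.

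In male basal cells the 5 largest were Gadd45a with 0.47 ± 0.15, Hspa1b with -0.45 ± 0.16, Dusp2 with -0.38 ± 0.28, Klf2 with 0.32 ± 0.09 and Egr2 with 0.31 ± 0.12, at adjusted p of 0.496, 0.558, 0.81, 0.457 and 0.627 in edgeR's quasi-likelihood test. Klf2 was at 202, 205 and 262 CPM in RD and 261, 265 and 276 CPM in HFD males. Hspa1b was at 312, 186 and 253 CPM in RD and 167, 195 and 169 CPM in HFD males, with RD replicate 2 among the HFD mice. Without that mouse 3 of the 36 genes passed, Egr2 higher and Hspa1a and Hspa1b lower in HFD, against 0.663% of all tested genes. For Hspa1b, leaving out an RD mouse that lay among the HFD mice enlarges the difference and adds no support. None of the 36 passed when any other mouse was left out instead.

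In male terminally differentiated cells the summed CPM of the 36 genes overlapped between the diets, at 13894, 15057 and 12935 CPM in RD and 12798, 13593 and 15775 CPM in HFD males. The feedback and growth arrest genes summed to 3049, 3401 and 2906 CPM in RD and 3144, 3231 and 3886 CPM in HFD males. After TMM scaling the median log2 fold change was 0.35 over the 35 genes tested, with 27 positive, against -0.06 and 45.4% over all tested genes. The 8 tested feedback and growth arrest genes were all positive, with a median of 0.52. Gadd45a was at 122, 98.2 and 143 CPM in RD and 176, 199 and 195 CPM in HFD males, with a log2 fold change of 1.01 ± 0.25 (adjusted p = 0.123, edgeR quasi-likelihood). Ier5 was at 377, 347 and 381 CPM in RD and 442, 541 and 467 CPM in HFD males, with 0.77 ± 0.22. Both were without overlap. Every HFD mouse was above every RD mouse for 4 genes, or 11.4%, against 3.54% of all tested genes, and below for 4 genes, or 11.4%, against 26.3%. TMM factors of this class ran from 0.744 to 1.39 over the 6 males, and the keratins Krt5, Krt14, Krt1 and Krt10 took 1.58% to 1.72% of UMIs in RD and 1.18% to 1.45% in HFD males, without overlap. The part of either in these fold changes was not tested. In female terminally differentiated cells the median was -0.10, against 0.03 over all tested genes.

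The same keratins took 1.33% to 1.89% of UMIs in RD and 0.54% to 0.75% in HFD male T cell-like cells, without overlap. In the same cells the heat shock genes summed to 5313, 4949 and 5658 CPM in RD and 4424, 3909 and 3969 CPM in HFD males, also without overlap, and 2 of the 9 tested had a positive fold change, with a median of -0.38, against 47.6% and -0.03 over all tested genes. The part of the keratins in the T cell-like values was not tested. In LC-like cells the diets overlapped, with 1.43% to 2.03% in RD and 1.30% to 1.65% in HFD males, and 0.48% to 0.73% in RD and 0.34% to 0.75% in HFD females. Markers of fibroblasts and of mast cells were at 0 in male LC-like cells. All 3 macrophage markers were detected there, with a sum of 312 to 461 CPM in RD and 381 to 651 CPM in HFD males, and of 153 to 195 CPM in RD and 191 to 242 CPM in HFD female LC-like cells, and their part in the LC-like values was not tested.

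An interaction term over all 12 mice tested if the HFD effect differed by sex. No gene of the 36 passed in any of the 8 comparisons, while 1.1% of all tested genes did in all cells, 0% in LC-like, 0% in T cell-like, 0.0274% in basal, 0.021% in proliferating, 0.247% in suprabasal or spinous, 0% in terminally differentiated and 0.124% in migratory cells. At an unadjusted p under 0.05 there were 11 of the 36 genes in all cells against 15.9% of all tested genes, 9 in LC-like against 5.19%, 8 of 34 tested in T cell-like against 6.96%, 8 in basal against 9.9%, 10 in proliferating against 9.52%, 11 in suprabasal or spinous against 14.3%, 15 in terminally differentiated against 26.3% and 8 in migratory cells against 11.1%. The interaction, male minus female, was negative for all 10 heat shock genes in LC-like cells, with a median of -0.60 on the log2 scale and 6 of them at an unadjusted p under 0.05. It was also negative for all 10 in proliferating and in suprabasal or spinous cells, with medians of -0.31 and -0.29. Over all tested genes the median interaction was -0.01 in LC-like, -0.03 in proliferating and -0.02 in suprabasal or spinous cells, with 49.3%, 44.9% and 46.9% positive. The smallest p was that of Nr4a2 in suprabasal or spinous cells, with -0.63 ± 0.14 (adjusted p = 0.0706, edgeR quasi-likelihood). In males the heat shock genes were positive in 4 of 10 in proliferating, 3 of 10 in suprabasal or spinous, 5 of 10 in basal and 4 of 10 in all cells, so a negative interaction did not always mean opposite signs in the sexes. With DESeq2, 4 of the 36 genes passed in all cells against 5.25% of all tested genes, 2 in suprabasal or spinous against 1.77%, 11 in terminally differentiated against 7.84% and 1 in migratory cells against 0.661%, and none in the other cells.

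Related genes from lists of the same and neighboring pathways gave a context. No gene of these lists passed in males. In female suprabasal or spinous cells 5 of 15 genes of the unfolded protein response, the chaperone program of the endoplasmic reticulum, were higher in HFD and none lower, where 3.61% of all tested genes passed in either direction. Among them were the main chaperone of that compartment Hspa5, with a log2 fold change of 0.39 ± 0.06, the disulfide isomerases Pdia4, with 0.54 ± 0.10, and Pdia6, with 0.43 ± 0.10, and the endoplasmic Hsp90 paralog Hsp90b1, with 0.43 ± 0.10. Of 25 other heat shock genes, 1 was higher and 1 lower there, Chordc1, a co-chaperone of Hsp90, with 0.31 ± 0.06 and Hspa4l, a partner of Hsp70, with -0.52 ± 0.08. The median log2 fold change there was 0.22 over the unfolded protein response and 0.03 over the other heat shock genes, against 0.00 over all tested genes. Hspa4l was also lower in all cells and in basal and proliferating cells of HFD females, Pdia4 and Chordc1 were higher in all cells, and Hspa5 was higher in proliferating cells. The collagen chaperone Serpinh1 rose in all cells and in basal, proliferating and migratory cells of HFD females, with 0.57 ± 0.08 in all cells, where its interaction, male minus female, was -0.88 ± 0.16 (adjusted p = 0.0261, edgeR quasi-likelihood).

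Cirbp, an RNA-binding protein induced by cold and lowered by heat, was lower in HFD females in all cells and in basal, proliferating, suprabasal or spinous and migratory cells, with log2 fold changes from -0.56 to -0.50. Of the 8 oxidative stress genes, Slc7a11, the cystine transporter, was lower in all cells of HFD females, with -0.50 ± 0.10. None of the 38 other immediate early genes passed in either sex, and 1 did in the interaction, Dusp5, a nuclear MAP kinase phosphatase, in migratory cells, with 0.90 ± 0.12 (adjusted p = 0.00898, edgeR quasi-likelihood).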

How the data were processed

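The authors deposited UMI counts per gene and barcode, whole numbers without normalization, made with Cell Ranger 6.1.0 (males) or 7.2.0 (females) per the file headers. The submitters' processing notes name Cell Ranger 7.2.0, Seurat 5.0.0 and mm10 (GRCm38) for all. The use of intronic reads is not given in the sources used here. Following the study's methods, cells were kept that had 200 (males) or 500 (females) to 6000 genes and no more than 5% mitochondrial UMIs. Counts were scaled to 10000 per cell and log-transformed. Using 2000 variable genes without the 36 members, 10 principal components and 20 neighbors, cells were clustered with leidenalg 0.10.2 to at least 10 clusters. A cluster was named when at least 3 markers of a class were in at least 0.1 of its cells with a log2 fold of at least 0.5. The printed values include doublets, whose removal was an alternative.

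UMIs were summed per mouse and class, filtered with filterByExpr, scaled by TMM and tested in edgeR 4.0.16 (R 4.3.3) by quasi-likelihood on 3 against 3 mice, with the 12 mice in 1 model for the interaction. The mouse is the replicate. Nothing in the labels says how mice were housed or processed together. Alternatives were DESeq2 1.42.0, no filter on low counts, leaving out each replicate, the replicate number as a block, at most 10% mitochondrial UMIs, the members among the variable genes, and the highest doublet scores removed (0.8% of cells per 1000 barcodes). The procedure was tested on simulated data. In LC-like cells it recovered 33.0% of 97 genes changed 2-fold and 98.8% of 86 changed 4-fold in males (8162 genes), and 44.0% of 100 and 98.9% of 88 in females (10528 genes). The simulated spread between mice was the same fixed value for every gene and was not taken from the data. Only genes above a minimum mean count were changed, so these rates need not hold for the comparisons above.

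LC-like sums held 904257 to 2147069 UMIs per male and 2170763 to 3877605 per female, and T cell-like sums 80582 to 337887 over all mice, so low genes there rest on few UMIs. Shares of cells with a UMI were computed after thinning to 2000 UMIs per cell, which left out 64 of 1336 male and 46 of 2121 female LC-like cells and 210 of 17578 and 325 of 16957 basal cells. The members and lists were chosen with earlier results of these data known. Named genes are all members past the threshold, the 5 largest fold changes in LC-like and in basal cells of each sex, and the 3 highest and lowest of each role group, here in all cells for levels and in LC-like cells for the spread. Other genes in the text were chosen after their values were seen. Sequences and promoter shares are from RefSeq on GRCm38.p6.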

Additional observations from a re-analysis of the deposited data

Results flagged for a closer look

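For 3 results the HFD and RD mice did not overlap within either sex, and the diet difference ran in opposite directions in males and females. They were picked for this pattern from all the genes examined here, over all cells and every class. The share of all tested genes with this pattern is not given, so these results are not read as particular to the genes examined here. In all cells, Hsp90aa1 had a log2 fold change of -0.11 in males, where RD mice were at 347, 349 and 348 CPM and HFD mice at 267, 323 and 334 CPM, and of 0.31 in females, where RD mice were at 349, 375 and 395 CPM and HFD mice at 472, 492 and 475 CPM. The difference, male minus female, was -0.44 ± 0.12 (adjusted p = 0.0847, edgeR quasi-likelihood). Hspa8 in all cells had -0.22 in males and 0.21 in females, a difference of -0.45 ± 0.12 (adjusted p = 0.0844, edgeR quasi-likelihood). Hspe1, a mitochondrial co-chaperone, in terminally differentiated cells was at 65.7, 73.1 and 41.1 CPM in RD and 19.7, 37.4 and 33.1 CPM in HFD males, and at 21.4, 46.4 and 29.5 CPM in RD and 50.0, 49.0 and 57.8 CPM in HFD females, a difference of -1.03 ± 0.28 (adjusted p = 0.0782, edgeR quasi-likelihood). None of the 3 differences passed after adjustment with edgeR as reported. With DESeq2 all 3 did, with adjusted p of 0.0173 for Hsp90aa1, 0.0134 for Hspa8 and 0.0150 for Hspe1, and Hspe1 also passed with edgeR without replicate 2, at 0.0190, and without the filter on low counts, at 0.0435.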

How the results depend on the processing

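Of 256 recomputed counts of the 36 genes called, 217 stayed within 1.5 times the count reported and 39 moved. Of 256 recomputed medians 255 moved by less than the spread, and the median of the interaction in suprabasal or spinous cells was -0.20 without replicate 2. For Nr4a2, Hspa8 and Hsp90aa1 in female suprabasal or spinous cells, 20 of 36 recomputed values stayed past the threshold, 16 did not and 0 changed direction, with adjusted p from 4.96e-05 to 0.0880, from 0.00226 to 0.176 and from 0.00330 to 0.172 (edgeR or DESeq2). The cause of the changes was not tested. With DESeq2 the counts of genes called were 1 in all male cells, 5 in male terminally differentiated cells, 2 in all female cells, 1 in female proliferating, 6 in female suprabasal or spinous and 1 in female migratory cells, and for the interaction 4 in all, 2 in suprabasal or spinous, 11 in terminally differentiated and 1 in migratory cells. Without the filter on low counts they were 1 in all male cells, 3 in male T cell-like, 3 in male basal, 2 in male proliferating, 2 in male terminally differentiated, 9 in female LC-like, 2 in female proliferating, 5 in female suprabasal or spinous and 1 in female migratory cells, and for the interaction 3 in LC-like, 4 in basal, 4 in proliferating, 4 in suprabasal or spinous, 3 in terminally differentiated and 2 in migratory cells. Over all genes, calls without the filter reached 836 in a male, 998 in a female and 862 in an interaction comparison. Shares of all tested genes are not given beside these counts, except above for female LC-like cells, so they are not read as particular to the 36 genes. With doublets removed, Klf4 passed in female migratory cells, a count of 1. With 1 mouse left out, counts ran from 0 to 3 in male basal (3 without RD replicate 2), 0 to 1 in male proliferating, 0 to 5 in male terminally differentiated (5 without RD replicate 3), 0 to 1 in all female (Klf4, without HFD replicate 1), 0 to 1 in female LC-like (Hsph1, without RD replicate 3), 0 to 1 in female proliferating (Hspd1, without HFD replicate 2) and 0 to 4 in female suprabasal or spinous cells, and for the interaction, where the same replicate number was left out of all 4 groups, 0 to 2 in proliferating, 0 to 2 in suprabasal or spinous and 0 to 12 in terminally differentiated cells (12 without replicate 2). Shares of all tested genes are not given beside these counts, except above for male basal cells without RD replicate 2 and female LC-like cells without RD replicate 3. Over all genes, such fits reached 939 calls in a male, 845 in a female and 1818 in an interaction comparison. The counts are thus not read as particular to the 36 genes. Of the 24 counts at an unadjusted p under 0.05, 23 moved by over 1.5 times in such a fit, and that of female LC-like cells, 10, ran from 7 to 14. Whether mice of the same replicate number were handled together is not given. Correlations of same-numbered mice ran from -0.240 to 0.182 in males and from -0.178 to 0.0747 in females. In male basal cells they were 0.0389, 0.104 and 0.0851, against at most 0.0290 for mice of different numbers. No such order was seen in male LC-like cells or in females, so a pairing of the males was not settled. With the replicate block 3 genes passed in female suprabasal or spinous cells as before, but they were Nr4a2, Hsph1 and Gadd45b, with adjusted p of 0.0354, 0.0338 and 0.0429 (edgeR quasi-likelihood), while Hspa8 and Hsp90aa1 had 0.0830 and 0.0806. Over all genes, the highest number of calls in a female comparison was 515 as reported, 1461 with DESeq2, 998 without the filter, 845 with a mouse left out and 243 with the block. In a male comparison it was 20, 194, 836 and 939 in the same order without the block, and for the interaction 202 as reported, 967 with DESeq2, 862 without the filter and 1818 without replicate 2 of every group.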
